A study of Mus musculus with 6 samples.

Results

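The contractile proteins of the myofibroblast were followed in cultured lung fibroblasts from mice without Mmp19, a matrix metalloproteinase, and from wild-type mice. The members were 10 genes chosen by name: Acta2, Actg2, Tagln, Cnn1, Myh11, Des, Myl9, Tpm1, Tpm2 and Smtn. All 10 were found through the RefSeq accessions of the spots, on 16 probes, among 20018 genes that could be named on the array and 12470 that passed the filter on dim probes. All 10 members passed that filter, and so did their 16 probes. Every animal, knockout (Mmp19 knockout) and wild type alike, was labelled as female and 11 weeks old and had received 0.08 units of bleomycin, a lung toxin used to provoke fibrosis, into the trachea. Fibroblasts were isolated on day 21, grown in FBM medium and incubated for 72 hours, so both groups consist of cells from injured lungs and no uninjured control was analysed here. Each group had 3 one-colour arrays, from experiments that the submitters call independent; whether animals were pooled within an array, and which part of Mmp19 was deleted, is not stated in the labels.

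Fibroblasts that turn into myofibroblasts build smooth muscle-type stress fibres. In these fibres actin filaments (Acta2, Actg2) carry tropomyosins (Tpm1, Tpm2) and binding proteins such as transgelin (Tagln), calponin (Cnn1) and smoothelin (Smtn), and they are pulled by myosin made of heavy chains (Myh11) and light chains (Myl9). Desmin (Des) is a muscle intermediate filament. Many of these genes are known targets of serum response factor, which binds the CArG box and works with myocardin-related cofactors that respond to the state of actin. Acta2 is the usual marker of the activated fibroblast in the fibrotic lung, whereas Myh11 and Des are better known from mature smooth muscle and mural cells.

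In these data the 10 genes did not behave as 1 group. Myh11 and Des rose in the knockout, and every knockout array lay above every wild-type array. Their measured folds were 7.87 and 5.61, but Myh11 cleared background on 2 of 3 wild-type arrays and Des on 1 of 3, so the sizes depend on how background is handled. With normexp background correction the differences were 1.62 log2 units for Myh11 and 1.04 for Des, against 2.98 and 2.49, and Des did not pass (adjusted p = 0.0565). The actins Acta2 and Actg2, the actin-binding Tagln and Cnn1, the light chain Myl9 and Tpm2 did not pass the test. For these 6 genes the largest spread lay inside the wild-type group: wild-type replicate 1 was the lowest of all 6 arrays for each of them, while wild-type replicates 2 and 3 lay nearer to the knockout mean. Tpm1 was higher on every knockout array by its brightest probe but did not pass (adjusted p = 0.0979), and Smtn did not pass either.

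The array-wide facts that bear on these values are as follows. The 75th percentile of the processed signal was 159.6 to 388 on the knockout arrays and 222.6 to 344 on the wild-type arrays, the share of spots well above background ran from 43.1% to 54.5%, and no spot was saturated; wild-type replicate 1, with 222.6 and 48.7%, lay between the lowest and highest of the other 5 arrays on both measures. Mmp19 cleared the scanner's background limit on 3 wild-type arrays (-0.55, -2.69 and -0.69) and on 0 knockout arrays, which puts it at least 5.33-fold lower in knockout cells (limma, adjusted p = 0.016). Eif2s3y and Ddx3y, which lie on the Y chromosome, were well above background on all 6 arrays although every animal is labelled female. Both were lower on every knockout array than on every wild-type array and uneven within the knockout. Eif2s3y was at 2.19, -1.77 and 0.67 in the knockout and at 2.92, 4.18 and 3.62 in the wild type. Neither passed (limma, adjusted p = 0.112 for Eif2s3y and 0.139 for Ddx3y). Xist was well above background on 3 knockout and 0 wild-type arrays. Unlike the Y-linked genes, Xist did pass, higher in the knockout (limma, adjusted p = 0.00323). The size of its rise is uncertain, because its wild-type signals did not clear background. A difference in sex or animals cannot be told apart from genotype. Fibroblast genes were present: of 10 fibroblast markers 10 were well above background on all knockout arrays and 9 on all wild-type arrays. Markers of other cell types were detected too. Of 10 epithelial markers, 6 cleared background on every knockout array and 6 on every wild-type array. For the 8 endothelial markers these counts were 5 and 5, and for the 8 leukocyte markers 5 and 5. Detection alone therefore does not identify the cells as fibroblasts. The defining myogenic genes Myod1, Myog and Myf5 were not well above background on any array, and neither was Myocd, the smooth muscle cofactor of serum response factor. In such bulk RNA, fewer cells of a type and less RNA per cell cannot be told apart.

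All values below are log2 signals minus the 75th percentile of their array, so that 0 is that percentile and 1 unit is a doubling. The scale holds for 1 probe across arrays and not between probes. Differences are knockout minus wild type with the standard error of the limma fit over all 24214 probes, and adjusted p is the Benjamini-Hochberg value over those probes. Of 12470 genes, 4.8% passed an adjusted p of 0.05 (3.3% higher and 1.49% lower in the knockout), and of the members 2 of 10 passed, both higher. Both, Myh11 and Des, met the filter on dim probes only through the knockout arrays, the group in which they were high. With no filter on dim probes neither passed in the limma fit (adjusted p = 0.0517 and 0.117). Counted over probes, 4.64% passed, 2 of the members' 16 among them. With slide as a block 1.8% of genes and the same 2 members passed. The median difference was 0.82 over the members and 0.08 over all genes tested. Of the members 8 had a difference above 0, as had 56.3% of all genes. The groups did not overlap for 3 of 10 members (Myh11, Des and Tpm1, all higher in the knockout), beside 31% of all genes, with 21.2% higher on every knockout array. With 3 arrays a group, an exact permutation test of 1 gene cannot go below p = 0.1, so calls rest on the limma fit.

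**Figure D1:**
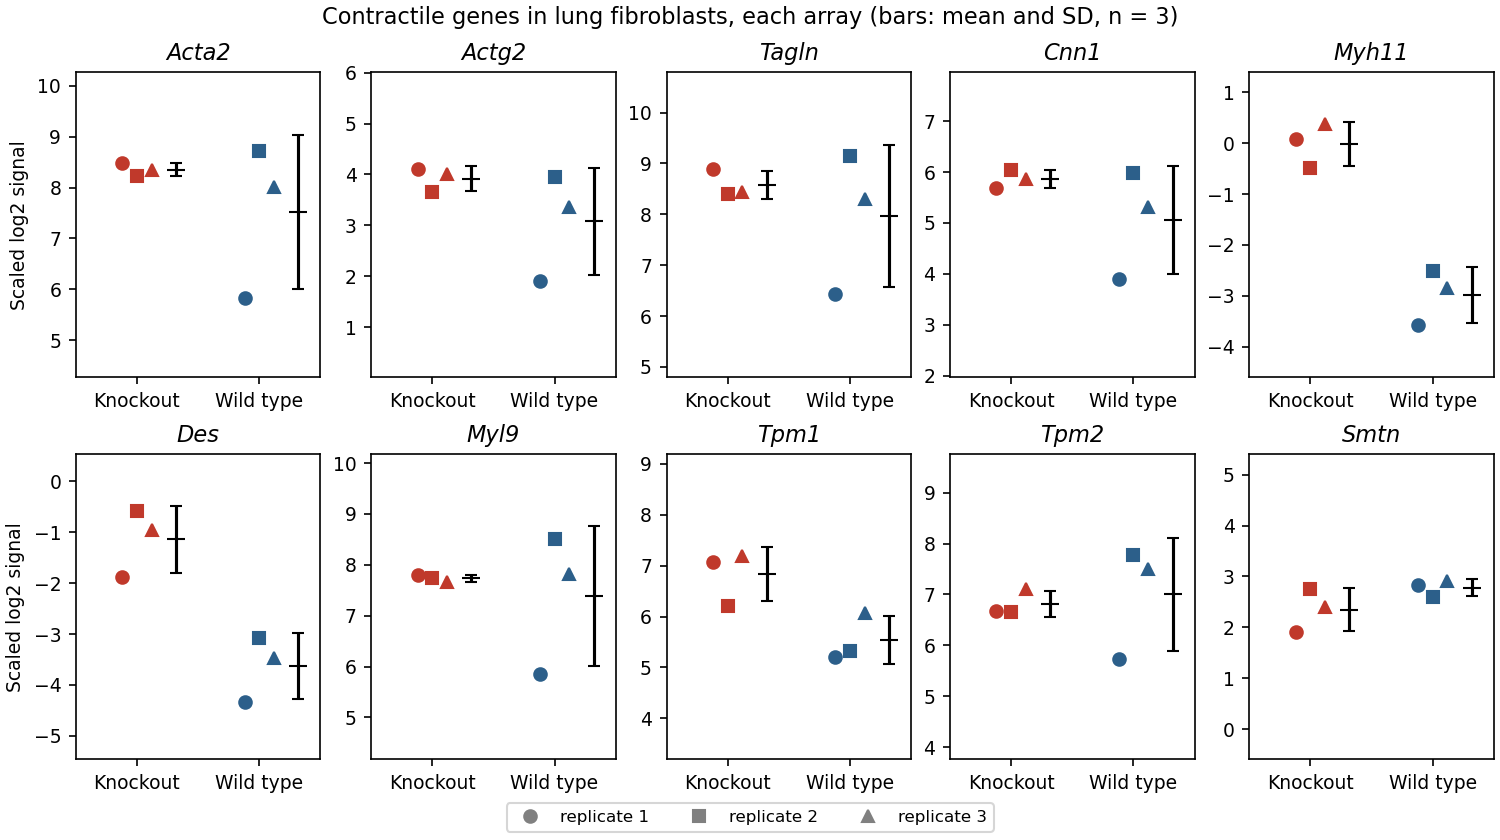
Scaled log2 signal of the 10 contractile genes, brightest probe of each, on the 3 knockout (red) and 3 wild-type (blue) arrays; circles, squares and triangles are replicates 1, 2 and 3, and black bars are the mean and SD (n = 3). Each panel spans the same number of log2 units. Wild-type replicate 1 lies lowest in every panel but that of Smtn, and the groups are apart for Myh11, Des and Tpm1.

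Acta2, smooth muscle alpha-actin, was read by 1 probe (A_52_P420504) printed on 10 spots of each array. Its scaled signal was 8.48, 8.22 and 8.35 in knockout replicates 1, 2 and 3 and 5.82, 8.71 and 8.02 in wild-type replicates 1, 2 and 3. The knockout arrays lay close together, within 0.26 units, while the wild-type arrays spanned 2.89 units, with 1 array far below and 1 array above all others. The groups overlapped, at 8.35 ± 0.13 in the knockout and 7.52 ± 1.51 in the wild type (SD, n = 3). The difference of 0.83 ± 0.69 (SE) did not pass (adjusted p = 0.53), and its 95% confidence interval ran from -0.80 to 2.46, which leaves room for a fall as well as for a several-fold rise. Without wild-type replicate 1 the difference was -0.02, with an interval from -0.72 to 0.68 (adjusted p = 0.978). Between the arrays of the same slide (a slide carried a knockout and a wild-type array) it was 2.65, -0.49 and 0.33.

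The repeated Acta2 spots of wild-type replicate 1 were alike. On that array the 9 spots left after outlier flags ran from 5.71 to 6.02 (SD 0.10), below the lowest spot of any other array, 7.92 in wild-type replicate 3. In unscaled processed intensity Acta2 was 10737 on that array, against 88805 and 75234 on the other wild-type arrays and 49309 to 97608 on the knockout arrays. These spots share 1 hybridisation, so they show the spread between spots and not between samples.

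**Figure D2:**
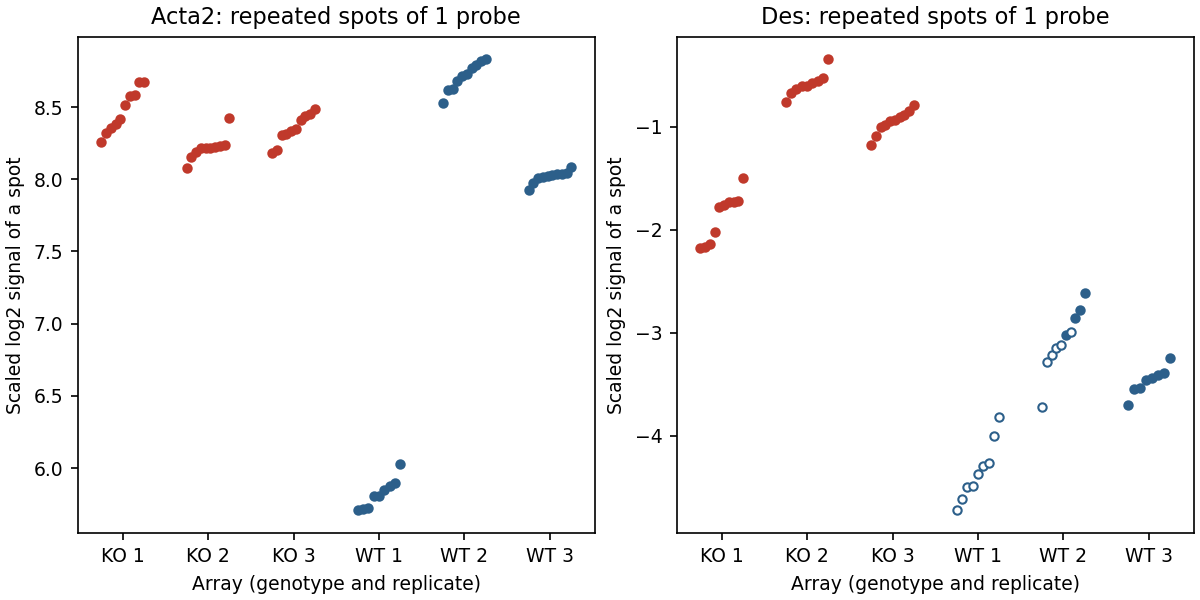
Scaled log2 signal of each repeated spot of the Acta2 probe (left) and the Des probe (right) on the 6 arrays, sorted within an array; red is knockout (KO), blue wild type (WT), and open circles are spots not well above background. The Acta2 spots of wild-type replicate 1 reach at most 6.02 and those of the other arrays above 7.92, whereas all Des spots of the knockout arrays lie above all wild-type spots.

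Actg2, smooth muscle gamma-actin, also had its lowest value in wild-type replicate 1, though its highest was in knockout replicate 1. It stood at 4.11, 3.65 and 4.0 in the knockout and at 1.91, 3.95 and 3.37 in the wild type, and the groups overlapped. The difference was 0.84 ± 0.51 (adjusted p = 0.386) and 0.26 without wild-type replicate 1. Actins are near-identical as proteins, which need not hold for their transcripts, and the position of the probes on the transcripts is not given in the sources. A share of signal from another actin is possible and was not tested.

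Of the proteins that bind the actin filament, Tagln (transgelin, SM22) and Cnn1 (calponin 1) were, like Acta2, low on wild-type replicate 1. Tagln was at 8.89, 8.41 and 8.44 in the knockout and 6.43, 9.16 and 8.30 in the wild type. Cnn1 was at 5.68, 6.03 and 5.87 in the knockout and 3.89, 5.97 and 5.31 in the wild type. Both showed wild-type replicate 1 below all other arrays, Tagln by 1.87 units and Cnn1 by 1.42, and in both the groups overlapped. The differences were 0.62 ± 0.65 for Tagln (adjusted p = 0.627) and 0.80 ± 0.51 for Cnn1 (adjusted p = 0.408), and -0.15 and 0.22 without wild-type replicate 1.

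Smtn, which binds actin in contractile smooth muscle cells, was the member that did not have its lowest value in wild-type replicate 1. On its brighter probe it was at 1.91, 2.75 and 2.39 in the knockout and at 2.84, 2.59 and 2.90 in the wild type. Knockout replicate 1 was the lowest array and knockout replicate 2 lay inside the wild-type range, so the groups overlapped. The difference was -0.43 ± 0.27 (adjusted p = 0.402), and -0.04 ± 0.33 on the other probe, where wild-type replicate 2 was lowest (-0.43).

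The tropomyosins wind along actin and set which myosins and binding proteins can reach it. Tpm2 was read by a pair of probes that agreed in their order of wild-type arrays: the brighter was at 6.67, 6.66 and 7.11 in the knockout and at 5.74, 7.78 and 7.49 in the wild type. The knockout arrays thus lay between wild-type replicate 1 and the other wild-type arrays. The difference was -0.19 ± 0.53 (adjusted p = 0.867). Without wild-type replicate 1 it was -0.83, with an interval from -1.46 to -0.19, and still did not pass (adjusted p = 0.176). The other Tpm2 probe gave 0.10 ± 0.60, and -0.64 without that array.

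Tpm1 is spliced into many isoforms, and its 5 probes did not give the same picture. The brightest, A_55_P2032192 (designed on NM_001164249), was at 7.08, 6.22 and 7.18 in the knockout and 5.21, 5.33 and 6.07 in the wild type. All knockout arrays lay above all wild-type arrays, the closest pair being knockout replicate 2 and wild-type replicate 3. The difference, 1.29 ± 0.36, did not pass over all probes (adjusted p = 0.0979), and within slides it was 1.88, 0.89 and 1.11. The probe A_55_P2078680 (NM_001164251) separated the groups too, with 0.83 ± 0.36 (adjusted p = 0.252), and A_55_P2187053 (NM_001164255) gave 0.37 ± 0.23. The 2 probes designed on NM_001164248 gave -0.09 ± 0.31 and -0.09 ± 0.26, with overlapping groups. Of the 5, these last were the only ones on which wild-type replicate 2 was the highest array, as it was for Tpm2, Myl9 and Acta2; the median over the 5 probes was 0.37. The difference between probes was not tested.

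**Figure D3:**
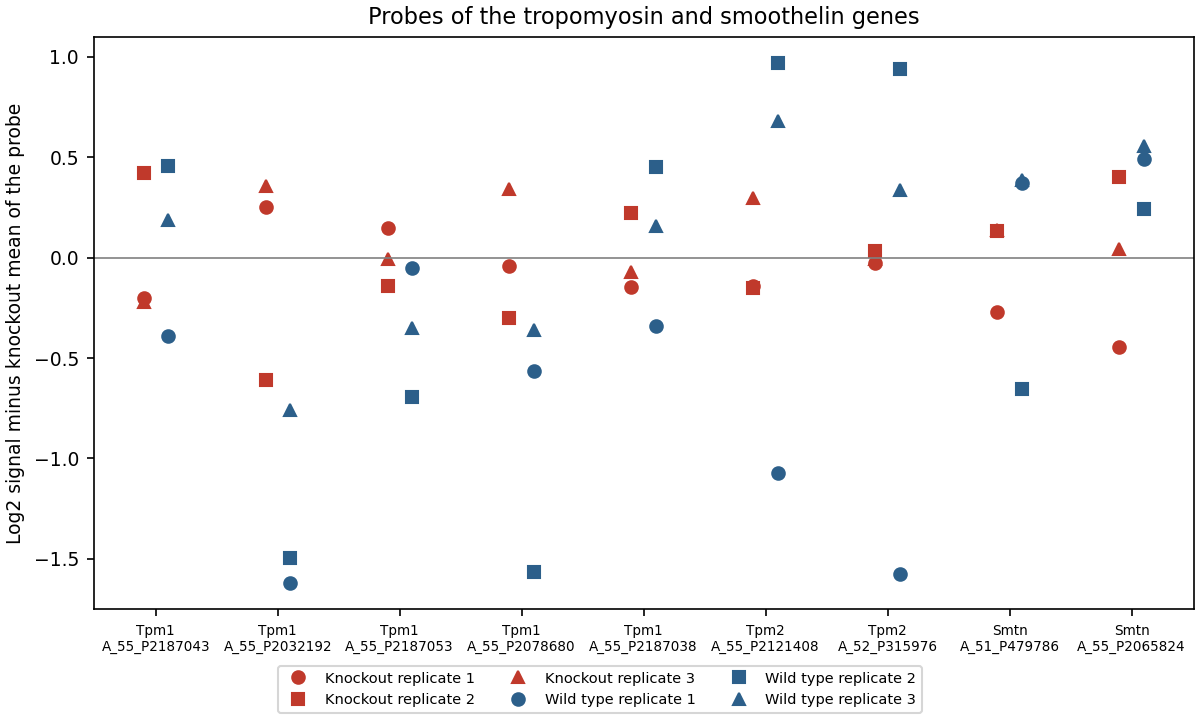
Log2 signal of each probe of Tpm1, Tpm2 and Smtn on each array, minus the mean of the knockout arrays of that probe (grey line); red is knockout, blue wild type, and the marker shape is the replicate. The wild-type arrays lie below all knockout arrays for the Tpm1 probes A_55_P2032192 and A_55_P2078680, and on both sides of the knockout arrays for Tpm2.

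The motor chains parted. Myl9, the regulatory light chain of smooth muscle and stress fibre myosin, was at 7.80, 7.74 and 7.66 in the knockout and at 5.86, 8.50 and 7.82 in the wild type. The knockout arrays lay within 0.13 units of each other, inside the wild-type range of 2.64 units. The difference was 0.34 ± 0.63 (adjusted p = 0.796), and -0.42 without wild-type replicate 1 (interval -1.10 to 0.26).

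Myh11, the smooth muscle myosin heavy chain, was at 0.08, -0.48 and 0.37 in the knockout and at -3.58, -2.52 and -2.85 in the wild type. Every knockout array was at least 2 units above every wild-type array, and the probe was well above background on 3 knockout and 2 wild-type arrays, wild-type replicate 1 being the exception. In unscaled processed intensity it was 147 to 318 in the knockout and 15.9 to 40.1 in the wild type. The rise of 2.98 ± 0.35 passed (adjusted p = 0.0109), and within slides it was 3.66, 2.04 and 3.22. It also passed with slide as a block (adjusted p = 0.0494) and without wild-type replicate 1 (2.68, adjusted p = 0.0282), but not without knockout replicate 3 (2.79, adjusted p = 0.0663) or wild-type replicate 3 (3.04, adjusted p = 0.0603).

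Des, desmin, was at -1.87, -0.59 and -0.96 in the knockout and at -4.34, -3.07 and -3.47 in the wild type. The groups did not overlap, the nearest arrays being knockout replicate 1 and wild-type replicate 2. The 27 wild-type spots that were kept lay below all 29 knockout spots, the highest of them at -2.61 against a lowest knockout spot of -2.18. Of these wild-type spots 0, 4 and 8 were well above background in replicates 1, 2 and 3. Spots of 1 array share a hybridisation, so they repeat the comparison of 3 against 3 arrays and add no samples. The signals were dim: the probe was well above background on 3 knockout arrays and 1 wild-type array, with unscaled intensities of 37.8 to 218 and 9.37 to 26.3. The rise of 2.49 ± 0.44 passed (adjusted p = 0.0316) and was 2.47, 2.49 and 2.51 within slides. It passed with slide as a block (adjusted p = 0.0271), but not without wild-type replicate 1 (2.13, adjusted p = 0.0748), wild-type replicate 3 (2.57, 0.111), knockout replicate 2 (2.21, 0.0791) or knockout replicate 3 (2.40, 0.147).

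**Figure D4:**
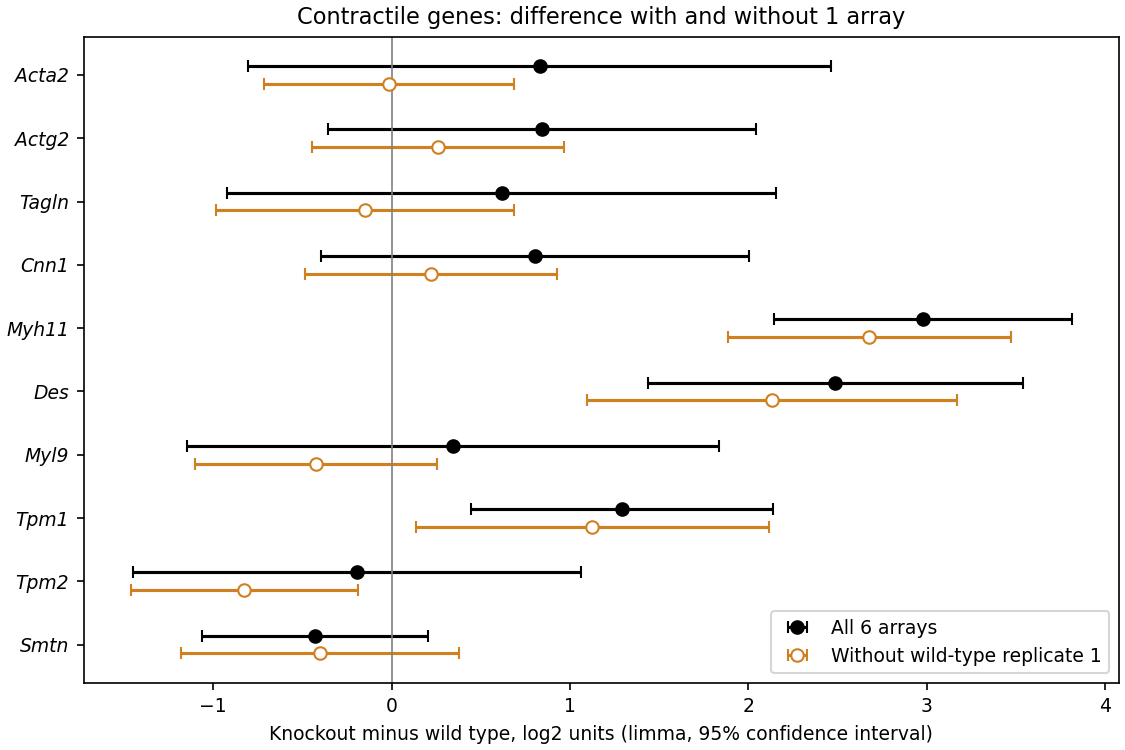
Difference between knockout and wild type in log2 units for the brightest probe of each gene, with the 95% confidence interval of the limma fit, over all 6 arrays (filled black) and without wild-type replicate 1 (open orange). The intervals of Myh11, Des and Tpm1 lie above 0 in both fits. By adjusted p Tpm1 passed in neither fit, and Des did not pass without wild-type replicate 1. The intervals of Acta2, Actg2, Tagln, Cnn1, Myl9 and Smtn include 0 in both. That of Tpm2 includes 0 over all 6 arrays and lies below 0 without wild-type replicate 1, where Tpm2 did not pass.

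Wild-type replicate 1 was the lowest of the 6 arrays for 9 of 10 members, beside 21% of all genes. It lay at least 1 unit below every other array for 5 members, namely Acta2 (by 2.19 units), Tagln (1.87), Myl9 (1.81), Actg2 (1.46) and Cnn1 (1.42), beside 2.09% of all genes. Of 12438 genes with a value on all arrays, 63 had a larger gap than Acta2. No other array held a member lowest or highest by at least 1 unit. Over all genes, wild-type replicate 2 was lowest by at least 1 unit more often, for 576 genes against 260 for wild-type replicate 1. Knockout replicate 1 was so for 236 genes. The range of the wild-type arrays had a median of 2.04 units over the members and 0.60 over all genes, while the knockout ranges were alike, 0.47 over the members and 0.48 over all genes. The median difference of the members fell with that array left out, to 0.10 beside 0.11 over all genes, and 1 member passed (Myh11), beside 2.04% of all genes. Within slides the median of the members was 2.07, -0.12 and 0.45, and that of all genes -0.01, 0.33 and -0.03. The pattern was chosen after the values were seen.

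**Figure D5:**
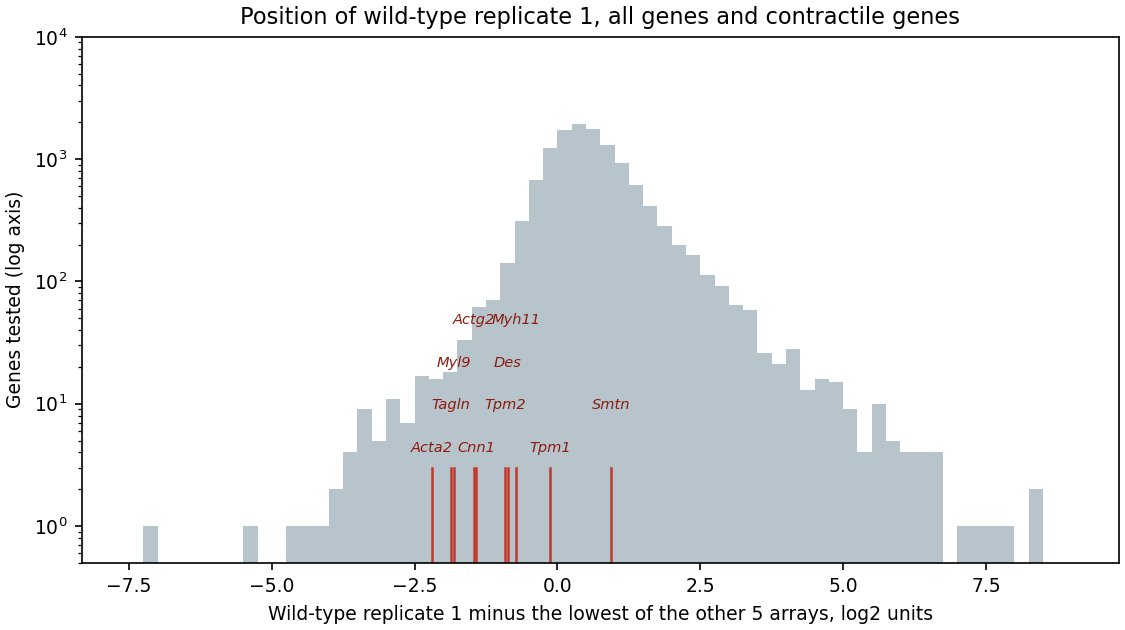
Histogram of wild-type replicate 1 minus the lowest of the other 5 arrays over the 12438 genes with all values, in log2 units with a logarithmic count axis; negative values mean that wild-type replicate 1 was lowest. Red ticks mark the 10 contractile genes: Acta2 at -2.19, Tagln, Myl9, Actg2 and Cnn1 lie in the left tail, and Smtn at 0.93 lies on the other side.

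Genes with an array pattern most like that of Acta2, by Pearson correlation of the scaled signals over the 6 arrays among 12057 other named genes, were Timp3 (r = 0.998), a matrix-bound protease inhibitor, Prnp (0.996), the prion protein, Cav1 (0.995), the coat protein of caveolae, Prss23 (0.994), a serine protease, and C4bp (0.993), a complement regulator. All 5 were low on wild-type replicate 1: Timp3 was at 7.62, 7.14 and 7.37 in the knockout and at 3.44, 7.68 and 6.90 in the wild type. Prss23 was at 1.37 on that array and between 6.86 and 8.13 on the others. The 6 points share 2 genotypes, 3 slides and 1 low array, so that array sets much of each r. Over the other 5 arrays r with Acta2 was 0.964 for Timp3, 0.973 for Prnp, 0.894 for Cav1, 0.881 for Prss23 and 0.853 for C4bp. Among the members it was 0.943 for Tagln, 0.807 for Actg2, 0.712 for Myl9, 0.586 for Cnn1, 0.228 for Tpm2, 0.09 for Myh11, -0.06 for Des, -0.21 for Tpm1 and -0.52 for Smtn. Over all 6 arrays 101 other genes had an r with Acta2 above 0.95.

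The bases before the start of these genes are shown because most of the members are textbook targets of serum response factor. Of the genes printed, Acta2, Myl9 and Cnn1 were at least 1 unit lower on wild-type replicate 1 than on any other array. Des was not. A link between the motifs and that array was not tested. Promoters of 7 members were matched by symbol in RefSeq's table for GRCm38.p6 (Acta2, Cnn1, Des, Myl9, Tpm1, Tpm2 and Smtn). The 250 bases before the annotated start were searched for the CArG box and for the same box with 1 C or G in its A/T core, which read alike on either strand, and for the MCAT core GGAATG, bound by TEAD factors, on either strand. Matches are in capitals and the rest is in lower case, 5′ to 3′ on the strand of the gene. The windows are chr19:34255374-34255623 (minus strand) for Acta2, chr2:156775214-156775463 (plus) for Myl9, chr9:22099003-22099252 (plus) for Cnn1 and chr1:75360042-75360291 (plus) for Des.
Acta2: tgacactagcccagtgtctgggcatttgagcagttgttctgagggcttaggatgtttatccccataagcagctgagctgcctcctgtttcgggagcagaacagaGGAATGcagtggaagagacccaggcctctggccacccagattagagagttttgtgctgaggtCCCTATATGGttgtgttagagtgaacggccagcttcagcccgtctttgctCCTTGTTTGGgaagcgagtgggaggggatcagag
Myl9: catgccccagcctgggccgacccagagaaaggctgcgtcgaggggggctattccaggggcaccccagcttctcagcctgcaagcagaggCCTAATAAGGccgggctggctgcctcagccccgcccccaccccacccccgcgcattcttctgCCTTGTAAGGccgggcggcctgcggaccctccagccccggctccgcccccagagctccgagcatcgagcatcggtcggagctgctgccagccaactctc
Cnn1: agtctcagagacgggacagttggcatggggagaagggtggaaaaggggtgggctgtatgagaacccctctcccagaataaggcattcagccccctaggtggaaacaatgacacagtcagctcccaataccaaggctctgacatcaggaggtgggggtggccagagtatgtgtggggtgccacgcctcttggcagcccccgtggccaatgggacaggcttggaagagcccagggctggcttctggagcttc
Des: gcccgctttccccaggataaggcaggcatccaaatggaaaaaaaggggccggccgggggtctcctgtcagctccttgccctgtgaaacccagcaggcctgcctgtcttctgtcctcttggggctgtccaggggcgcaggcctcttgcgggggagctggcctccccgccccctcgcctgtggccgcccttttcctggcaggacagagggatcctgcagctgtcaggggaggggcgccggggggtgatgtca
Acta2 held 2 boxes with 1 C or G in the core, beginning 84 and 34 bases before the start, and an MCAT core 146 bases before it. Myl9 held a CArG box 161 bases before the start and a box with 1 C or G in the core 99 bases before it. Cnn1 and Des held none of the motifs in this window. Tpm1 and Smtn each held an MCAT core, and Tpm2 no match. Over all 32851 promoters of that length in the table, 1.47% held a CArG box, 8.59% a CArG box or a box with 1 C or G in the core, and 12.6% an MCAT core. A match is a description of the letters, and its absence says only that they are not in this window.

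Other genes of the contractile apparatus were counted from 7 lists. Of 12 thin filament relatives of the members that were tested, 0 passed. Among the closest to passing, the calponins Cnn3 and Cnn2 had differences of 0.85 ± 0.21 (adjusted p = 0.0728) and 0.63 ± 0.19 (0.129). The cytoplasmic actins, which build the general cytoskeleton, had differences of -0.08 ± 0.23 (Actb) and 0.01 ± 0.32 (Actg1). Of 7 myosin chains 0 passed although all 7 differences were above 0 (median 0.68), with the nonmuscle heavy chain Myh9 at 0.77 ± 0.20 (adjusted p = 0.0871) and the light chain Myl12b at 0.85 ± 0.24 (0.106). Of 11 genes of myosin phosphorylation 0 passed, with a median of 0.26; Prkg1, the cyclic GMP-dependent kinase that relaxes smooth muscle, was at 1.48 ± 0.32 (adjusted p = 0.0542) and the myosin light chain kinase Mylk at 1.64 ± 0.39 (0.0701). Both had their lowest value on wild-type replicate 1, as had 8 of these 11 genes.

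Regulators and anchors gave few calls as well. Of 10 regulators around serum response factor 0 passed (median 0.26). The factor itself, Srf, was at 0.02 ± 0.43, its cofactor Mrtfa at 0.21 ± 0.22 and Mrtfb at 0.37 ± 0.20. The nearest to passing was Klf4, which represses contractile genes in smooth muscle, at 0.66 ± 0.27 (adjusted p = 0.215). Of 13 adhesion and anchorage genes 0 passed (median -0.01), with vinculin, Vcl, at 1.66 ± 0.36 (adjusted p = 0.0523) and the LIM protein Csrp2 at -0.61 ± 0.34. Of 4 other intermediate filament genes 0 passed (median -0.54). Nestin, Nes, was at 0.08, 1.60 and 1.53 in the knockout and at 2.0, 3.74 and 3.26 in the wild type. Every knockout array lay below every wild-type array, with -1.93 ± 0.58 (adjusted p = 0.118, and 0.0397 with slide as a block). Synemin, Synm, a partner of desmin, was at -0.98 ± 0.49. Of 6 channel and receptor genes of smooth muscle 1 passed, the angiotensin receptor Agtr1a, which cleared background on 0 of 3 wild-type arrays and stood at least 5.63-fold above them in knockout cells (adjusted p = 0.00257). With slide as a block and without wild-type replicate 1 the same numbers of genes passed in these lists, with Nes the exception under the block.

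Markers of other cell types were read beside the members. Of 9 mesothelial markers 6 passed, all higher in the knockout. Of these, Upk3b, Lrrn4 and Bnc1 met the filter on dim probes only through the knockout arrays, the group in which they were high. All 9 markers cleared background on every knockout array, and 4 on every wild-type array. The summed signal of the list, in multiples of the 75th percentile, was 48.5 to 141 on the knockout arrays and 2.75 to 19.0 on the wild-type arrays. Such sums, here and below, weigh the brightest probes most, and signals do not compare between probes. Wild-type replicate 1 held the lowest sum, 2.75, and the lowest value of all 9 genes; Upk3b, a surface protein of mesothelium, was at -3.75 there, -0.05 and -1.0 on the other wild-type arrays and 2.52 to 3.68 in the knockout. The 10 contractile genes summed to 317 on wild-type replicate 1 and to 1105 and 1696 on the other wild-type arrays, against 1113 to 1363 in the knockout. Tagln, Acta2 and Myl9 made up most of this sum, and the dim Myh11 and Des added little to it. All knockout sums of the mesothelial list exceeded all wild-type sums, and the sums of the contractile genes overlapped. The part of mesothelial RNA in the members' values was not tested. The count of 6 was 6 with slide as a block, but with Gpm6a (adjusted p = 0.0447) in place of Lrrn4 (0.0528). It was 5 without wild-type replicate 1, where Wt1 (0.0943) and Rspo1 (0.0632) were lost and Gpm6a (0.0400) was gained.

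Of 7 tested pericyte and mural markers 1 passed, the guanylate cyclase subunit Gucy1a1 (2.79 ± 0.50, adjusted p = 0.0316). It was at -1.44, -0.03 and -0.68 in the knockout and -4.06, -2.60 and -3.87 in the wild type. Gucy1a1 met the filter on dim probes only through the knockout arrays, the group in which it was high. The proteoglycan Cspg4 and the receptor Notch3, also typical of mural cells, had differences of -1.22 ± 0.81 and -1.31 ± 0.55. Without wild-type replicate 1 Gucy1a1 did not pass (2.52, adjusted p = 0.0906) and Cspg4 did, lower in the knockout (-2.23, adjusted p = 0.0358), and Rgs5, Abcc9 and Kcnj8 did not pass the filter on dim probes. The summed mural signal was 22.6 to 27.9 in the knockout and 18.9 to 26.7 in the wild type, with overlapping groups. Of 10 fibroblast markers 2 passed, Col1a1 (1.47 ± 0.26, adjusted p = 0.0307) and Col1a2 (1.25 ± 0.25, 0.0415), and 7 were lowest on wild-type replicate 1; their sum was 1094 on that array, 1590 and 1940 on the other wild-type arrays and 2267 to 2389 in the knockout. Neither collagen passed with slide as a block (adjusted p = 0.0845 and 0.0944) or without wild-type replicate 1 (0.0895 and 0.0991), where Col3a1, another fibrillar collagen, passed in their place (2.40, adjusted p = 0.0422). The part of these shifts in the members' values was not tested.

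Epithelial (7 tested, 0 passed; Krt18 at 2.55 ± 0.70, adjusted p = 0.0941, and Krt5 at -0.34 ± 0.26) and endothelial markers (5 tested, 0 passed; Pecam1 at 0.50 ± 0.31 and Kdr at -0.19 ± 0.23) gave no call. Of 6 leukocyte markers Cd79b was lower in the knockout (-1.34 ± 0.22, adjusted p = 0.0241). It met the filter on dim probes only through the wild-type arrays, the group in which it was high. Of 10 striated muscle markers 2 were tested and Tnni3, a cardiac troponin subunit, was higher (1.01 ± 0.21, adjusted p = 0.047). Tnni3 met the filter only through the knockout arrays, where it was high. Of the 10, 6 were not well above background on any array, Ckm and Actn2 among them. The cardiac Myh6 was at -0.03 ± 0.27. With slide as a block Krt18 passed (adjusted p = 0.0468), while Cd79b (0.0813) and Tnni3 (0.106) did not, and Tnni3 did not pass without wild-type replicate 1 either (0.104).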

How the data were processed

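Per the labels' protocols, 0.5 ug of total RNA from each of 6 cultures was Cy3-labelled for an Agilent array read in a single colour. The deposited scanner tables hold spot intensity values made by the authors with Agilent Feature Extraction 10.7.3.1, per the file headers (the submitters' processing notes name version 9.1), background-subtracted and not normalized between arrays; the array design names build mm9. The authors also deposited log2 values of 35844 probes, with column medians of 5.51 to 5.76, whose normalization and centring are not given in the sources used here; they correlated with the log2 signal of their own array at 0.996 or more and served as an alternative. 

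Control spots and outlier spots were left out and spots of 1 probe averaged (55681 probes). Each array's 75th percentile of log2 processed signal was subtracted, and the 24214 probes that cleared background on every array of either group were tested. Knockout and wild type were compared, two-sided and with no block, by limma 3.58.1 (lmFit, eBayes; R 4.3.3); the code was tested on simulated data. Probes were named by RefSeq accession through GRCm38.p6 (47.4% named), and a gene was represented by its brightest tested probe. Members and lists were chosen with earlier results of these data known. Named genes were the members, Mmp19, the sex-linked genes and the 5 genes most like Acta2. Each list gave up to 3 genes past the threshold, or up to 2 nearest to it. Others were added after their values were seen. These were Actb, Actg1, Acta1, Srf, Mrtfa, Cspg4, Notch3, Col3a1, Wt1, Rspo1, Myh6, the genes with the widest gaps on wild-type replicate 1, and genes below background or not past the filter. Each slide held both arrays of 1 replicate number; deviations from group means correlated at 0.10, -0.02 and 0.21 within slides, so arrays were not paired. The sources describe separate experiments but not separate animals, so p-values measure the spread between these samples.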

Additional observations from a re-analysis of the deposited data

How the results depend on the processing

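Of the members, Myh11 passed in 13 of 16 alternative fits and Des in 10 of 16; Tpm1 passed in 1 of 17 (array weights) and the others in 0 of 17. The number of probes past the threshold was 1124, and 633 with normexp background, 113 with no filter on dim probes, 650 over probes well above background on all arrays, 385 with the replicate block, which is also the slide block, 5962 with array weights, and 107 to 1716 without 1 array. The members past it were 2, and 1 with normexp (Des lost, 1.04, adjusted p = 0.0565), 0 with no filter (Myh11 0.0517, Des 0.117), 0 over probes well above background on all arrays, where neither Myh11 nor Des was tested, and 0 to 2 without 1 array; with the replicate block there were 2. The median change of the members, 0.82, was 0.68 to 0.87 under other scalings and 0.10 to 1.24 without 1 array, the lowest without wild-type replicate 1. Without 1 array the difference ran from -0.0172 to 1.43 for Acta2, from -0.15 to 1.21 for Tagln, from -0.42 to 0.90 for Myl9 and from -0.83 to 0.19 for Tpm2; the first 3 were below 0 without wild-type replicate 1, Tpm2 was above 0 without wild-type replicate 2 or 3 (0.05), and none passed in any of these fits. With the 75th percentile over probes detected on all arrays, calls over all genes were 369 higher and 266 lower, against 412 and 186, and the median of all genes was -0.03, against 0.08; 8 of 10 members stayed above 0. With array weights 1651 genes were higher and 1540 lower, and with the authors' log2 values 385 and 300 (median of all genes -0.05). Other causes were not tested. The dim signals of Myh11 and Des in the wild type limit the size of their folds: over the alternatives the difference ran from 1.62 (normexp) to 3.22 for Myh11 and from 1.04 (normexp) to 2.85 for Des.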

Other observations

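On 76 of 12438 genes wild-type replicate 1 lay at least 2 units below every other array, a count that was 91 for wild-type replicate 2 and 29 or fewer for each other array. The named genes with the widest gaps, picked after their values were seen, were Upk1b, a mesothelial uroplakin (-5.32 on that array and 1.78 to 4.0 on the others), Prss23, Pappa, a protease that frees insulin-like growth factors (-2.48 against 2.20 to 3.52), Xlr4b, Plcl1, Fzd4, a Wnt receptor (-3.88 against 0.10 to 0.72), and Gpm6a, which is on the mesothelial list. None of these 7 passed in the fit of all 6 arrays, where adjusted p ran from 0.0509 for Gpm6a to 0.63 for Pappa; without wild-type replicate 1 Gpm6a passed (4.04, adjusted p = 0.0400). Skeletal actin, Acta1, was lowest on that array as well, at 0.90 against 2.35 to 3.91 on the others.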
